A study of Mus musculus with 8 samples.

Results

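Transcripts of 10 genes that mark adventitial, or universal, fibroblast progenitors were compared between ADAM12+ (GFP+) and ADAM12– (GFP-) stromal cells of mouse melanoma. The genes were Pi16, Dpp4, Cd34, Ly6a, Ly6c1, Cd55, Anxa3, Dact2, Efhd1 and Limch1, taken by name from a table of 53801 genes, in which each occurred once. RNA had been sequenced from cells sorted out of MO5 tumours, which grow from B16 melanoma cells that carry the ovalbumin gene, at day 8 after subcutaneous implantation. There were 4 GFP+ and 4 GFP- libraries. All came from ADAM12-GFP mice on the C57Bl/6 background, which carry a bacterial artificial chromosome with Cre-Ires-GFP under the control of Adam12, and which the study's methods give as 8 to 12 weeks old, of both sexes, and sex-matched to littermates. Both groups were PDPN+ PDGFRα+ and had been gated to lack CD45 and CD31, so that the gates differed in the reporter alone. The reporter follows the Adam12 transgene and not the protein. The study counts its samples as mice. On that ground the libraries of a group are taken to come from separate mice. Neither the labels nor the methods say whether same-numbered GFP+ and GFP- libraries came from the same tumour.

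Adventitial fibroblasts line the outer wall of larger vessels and fascia. In many mouse tissues they are the cells that carry the secreted peptidase inhibitor Pi16 together with the surface peptidase Dpp4, and they are held to be a reserve that can give rise to more specialised fibroblasts. A second universal state, the parenchymal fibroblast, is marked by the collagen Col15a1 and other basement membrane genes and is placed between the reserve and the specialised states.

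Of the 10 progenitor markers, 2 rose in ADAM12+ cells, Ly6a and Ly6c1, and none fell at an adjusted p under 0.05 (DESeq2, Benjamini-Hochberg over all genes tested). With the replicate number as a block, Pi16 and Limch1 were also called, both lower. Across the 15283 genes tested, 4.66% were called higher and 4.76% lower in GFP+, or 9.42% in either direction. Ly6a was 2.34-fold and Ly6c1 2.79-fold higher, and both kept this direction but lost the call when libraries were scaled to pan-fibroblast genes. Pi16, the gene that defines the state, was 1.40-fold lower in GFP+ with no overlap between the groups but did not pass the test, and Dpp4 and Cd34 overlapped between the groups. The median log2 fold change of the 10 markers was 0.19, against -0.0082 over all genes tested. The study itself named Ly6a among genes higher in these samples, so that its direction is not independent evidence. In bulk RNA, fewer cells that carry a transcript and less of it per cell cannot be told apart.

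Total counts ran from 883144 in GFP- replicate 3 to 31666734 in GFP+ replicate 4, with size factors of 0.0910 and 2.98, so that a read of the former weighed most in a normalised count. Adam12, the gene behind the reporter, rose by 0.75 ± 0.24 (SE) on the log2 scale (adjusted p = 0.0266) and did not overlap between the groups. It had 1693, 1605, 1231 and 920 normalised counts in GFP- and 1833, 2396, 2039 and 2938 in GFP+. The GFP- cells, called ADAM12– by the reporter gate, thus also carried Adam12 RNA. Of the sort markers, Pdgfra was higher by 1.32 ± 0.17 (adjusted p = 1.9e-12) and Pdpn by 0.70 ± 0.21 (adjusted p = 0.0134), although both groups had been gated as positive. Scaled to 16 pan-fibroblast genes, none of these 3 was called and Pdpn turned in sign (-0.04). Ptprc, which encodes CD45, had 137 to 1703 normalised counts in GFP- and 119 to 1383 in GFP+, and Pecam1, which encodes CD31, had 81.0 to 516 and 141 to 323. The 16 pan-fibroblast genes took 3.86 to 7.65% of all counts in GFP-, lowest in replicate 4, and 8.51 to 8.63% in GFP+. Transcripts of 11 melanocyte genes took 0.263 to 0.813% of counts in GFP-, highest in replicate 4, and 0.0371 to 0.112% in GFP+, with 11 of 11 genes lower. Both shares moved with the groups, and their part in the results that follow was not tested.

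The promoters of Ly6c1, which rose, of its close paralog Ly6c2, with which it can share reads, and of Pi16 are shown first. RefSeq windows on GRCm38.p6, from 250 bases before to 50 after a start of transcription, were matched for 8 of the 10 markers. None was matched for Ly6a or Anxa3, while Ly6c1 and Ly6c2 have 2 windows each, of which the one farther upstream is printed. Each is printed 5′ to 3′ on the gene's strand in lower case, and capitals mark matches to the motifs searched.
Ly6c1, chr15:75048788-75049087, minus strand: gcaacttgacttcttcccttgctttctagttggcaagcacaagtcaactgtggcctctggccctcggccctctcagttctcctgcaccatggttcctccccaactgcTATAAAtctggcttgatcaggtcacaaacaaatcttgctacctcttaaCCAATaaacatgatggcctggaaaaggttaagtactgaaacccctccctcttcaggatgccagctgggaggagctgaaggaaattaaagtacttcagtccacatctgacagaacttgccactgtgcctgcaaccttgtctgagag
Ly6c2, chr15:75111922-75112221, minus strand: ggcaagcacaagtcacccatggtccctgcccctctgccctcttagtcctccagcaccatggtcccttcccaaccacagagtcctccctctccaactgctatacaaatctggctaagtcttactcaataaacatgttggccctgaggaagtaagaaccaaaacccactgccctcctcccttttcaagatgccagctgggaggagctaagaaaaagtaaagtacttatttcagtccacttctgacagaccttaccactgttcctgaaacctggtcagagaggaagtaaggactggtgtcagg
Pi16, chr17:29318632-29318931, plus strand: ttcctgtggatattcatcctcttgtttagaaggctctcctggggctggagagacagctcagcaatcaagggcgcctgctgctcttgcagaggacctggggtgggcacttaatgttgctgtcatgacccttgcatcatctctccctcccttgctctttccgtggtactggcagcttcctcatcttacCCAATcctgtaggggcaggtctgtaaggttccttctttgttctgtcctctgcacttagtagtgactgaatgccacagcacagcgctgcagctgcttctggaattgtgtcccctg

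The motifs, searched on both strands, were the AP-1 site TGANTCA, the STAT site TTCNNNGAA, the core of the interferon-stimulated response element (ISRE), the TATA box TATAAA, the box known as CCAAT and the GC box GGGCGG. In the printed Ly6c1 window TATAAA began 143 bases and CCAAT 95 bases before the start site. CCAAT began 64 bases before the start site of Pi16, and neither the second Ly6c1 window nor either Ly6c2 window held any of the 6. Of 32851 promoter windows, 13.6% held TATAAA, 37.4% CCAAT, 7.81% the AP-1 site, 8.30% the STAT site, 3.44% the ISRE core and 35.7% the GC box. The printed Ly6c1 and Ly6c2 windows were identical at 62.9% of 340 aligned positions and shared a run of 20 bases, and the other 3 pairs of windows were identical at 39.8 to 52.2% and shared runs of up to 37 bases. A match describes these letters alone and not the binding of a factor.

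**Figure D1:**
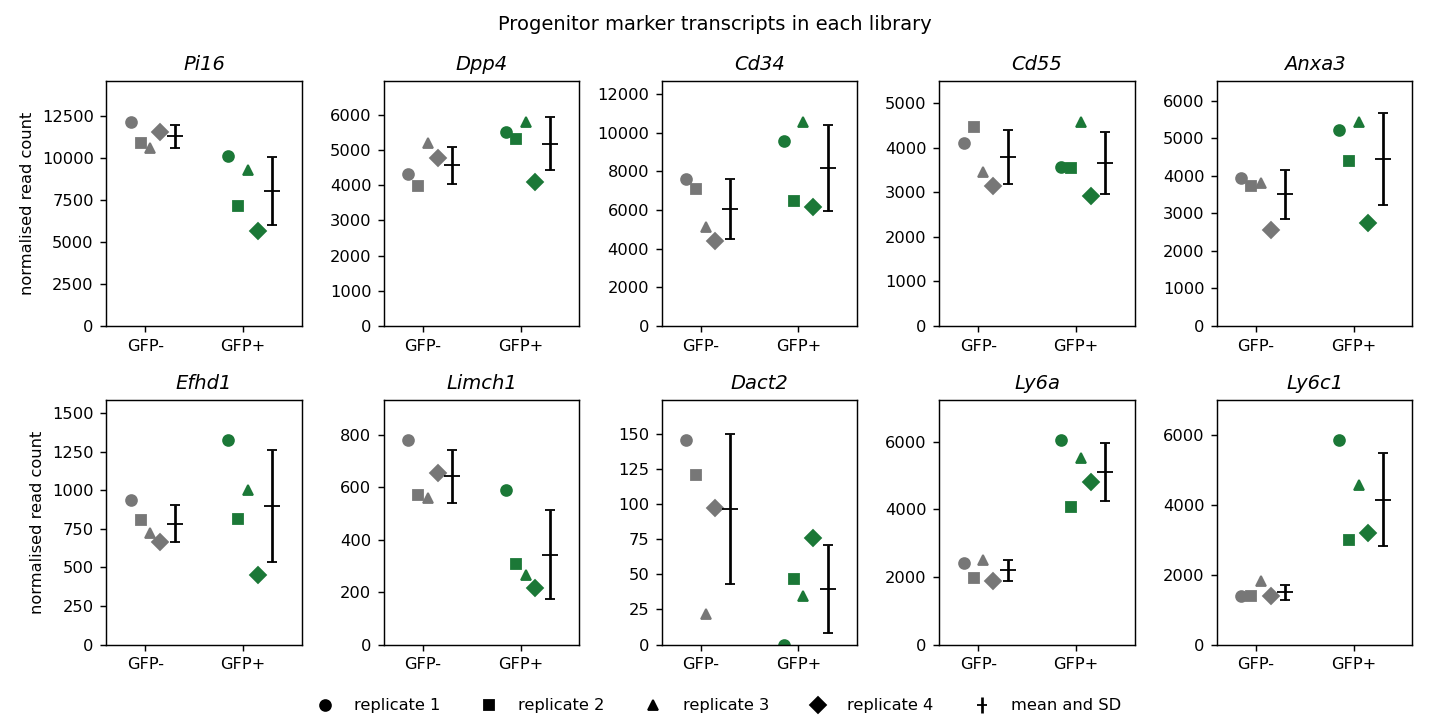
Normalised read counts (raw count divided by the library's size factor) of the 10 progenitor markers in each of the 4 GFP- (grey) and 4 GFP+ (green) libraries, with the group mean and SD in black and each axis starting at 0. The groups are apart, with GFP+ above, for Ly6a and Ly6c1, and apart with GFP+ below for Pi16, and they overlap for the other 7 genes.

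The pair that rose belong to the Ly6 family of small surface proteins anchored by a lipid. Ly6a, better known as Sca-1, is used to sort mouse mesenchymal and haematopoietic progenitors, and Ly6c1 is a component of the Ly6C epitope. Ly6a (ENSMUSG00000075602) lies at chr15:74994877-74998031 on the minus strand of GRCm38. Its normalised counts were 2423, 1953, 2505 and 1888 in GFP- replicates 1 to 4 and 6038, 4067, 5526 and 4802 in GFP+ replicates 1 to 4. Every GFP+ library thus stood above every GFP- library. The log2 fold change was 1.23 ± 0.18 (SE, n = 4 and 4; adjusted p = 4.5e-09, DESeq2).

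Ly6c1 (ENSMUSG00000079018) lies nearby at chr15:75044018-75048830, on the same strand. Its counts were 1381, 1378, 1813 and 1404 in GFP- and 5850, 2987, 4561 and 3198 in GFP+. The groups were again apart, while the GFP+ libraries differed among themselves more than the GFP- libraries did, with a coefficient of variation of 32.1% against 14.3%. This was a log2 fold change of 1.48 ± 0.24 (adjusted p = 9.4e-08, DESeq2).

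Both calls held whichever of the 8 libraries was left out, with log2 fold changes of 1.15 to 1.32 for Ly6a and 1.29 to 1.61 for Ly6c1. Without GFP- replicate 4, which was richest in melanocyte transcripts, the values were 1.16 and 1.46. Without the shallow GFP- replicate 3 they were 1.28 and 1.57. Scaling the libraries to the 16 pan-fibroblast genes ended both calls, at 0.49 for Ly6a (adjusted p = 0.168, DESeq2) and 0.70 for Ly6c1 (adjusted p = 0.0857, DESeq2), while the median of all genes tested moved to -0.77. Under that scaling 27.2% of all genes were called, 0.597% higher and 26.6% lower. Relative to Col1a2, a collagen chain of fibroblasts in general, the ratio of Ly6a counts within a library was 0.0178 to 0.0353 in GFP- and 0.0342 to 0.0436 in GFP+, and the groups overlapped.

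Reads of these genes can be shared with their relatives. Of the 50-base stretches in annotated Ly6c1 transcripts, 32.8% also occur in another gene, foremost Ly6c2, Ly6a and Ly6i, and for Ly6a the share was 19.0%. The counts of both are therefore uncertain by what the counting lost or split. Ly6c2 itself was near the limit of detection, with 0, 12.9, 65.9 and 32.6 normalised counts in GFP- and 1.39, 28.4, 7.68 and 55.0 in GFP+. The groups overlapped, and the log2 fold change of -0.14 ± 1.21 had an interval from -2.51 to 2.23 (adjusted p = 0.975, DESeq2), which includes the value of Ly6c1.

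Ly6e, a broadly expressed family member, was the other Ly6 gene to rise, by 1.28 ± 0.20 on the log2 scale (adjusted p = 3.9e-08, DESeq2), and like Ly6a it lost its call under pan-fibroblast scaling (0.54, adjusted p = 0.135, DESeq2). It had 2002, 1657, 2208 and 1546 normalised counts in GFP- and 5034, 3304, 5242 and 4269 in GFP+. The ratio of Ly6e to Ly6a reads stayed within 0.812 to 0.949 over the 8 libraries, so that the 2 transcripts kept nearly the same proportion in both groups. Lynx1, which modulates acetylcholine receptors, had a log2 fold change of 0.56 ± 0.27 and overlapped between the groups (adjusted p = 0.201, DESeq2). Ly6i, at a mean of 14.9 normalised counts, had 77.8 in GFP+ replicate 1 and 0 to 17.4 in the other 7 libraries (adjusted p = 0.191, DESeq2). Other Ly6 family genes found in the table had a mean below 10 normalised counts or no count.

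Ly6a and Ly6c1 are also carried by leukocytes and endothelial cells. Of the 13 leukocyte gene rows tested by DESeq2, none was called in either direction, and edgeR without GFP- replicate 3 called Ptprc and Lyz2 higher. The summed level of the leukocyte list was 970 to 6241 normalised counts in GFP- and 903 to 4860 in GFP+. The 2 libraries richest in Ptprc, GFP- replicate 3 and GFP+ replicate 2, had 2505 and 4067 counts of Ly6a, the highest of the former group and the lowest of the latter. Of the endothelial genes, 1 of 11 tested by DESeq2 was lower (Vwf, -3.30) and none was higher, 6 had a positive and 5 a negative log2 fold change, and the summed level was 1864 to 3186 in GFP- and 2196 to 3848 in GFP+. Kdr, a receptor of vascular endothelial growth factor, had 426, 629, 659 and 306 normalised counts in GFP- and 1912, 844, 1369 and 288 in GFP+, highest in GFP+ replicate 1, where Ly6a and Ly6c1 were highest too. The groups overlapped, and the log2 fold change of 1.14 ± 0.46 was called by edgeR (adjusted p = 0.00016) but not by DESeq2 (adjusted p = 0.107) or limma voom (adjusted p = 0.381). Pecam1 was called higher by limma voom (adjusted p = 0.0438) and not by DESeq2 (0.42 ± 0.54, adjusted p = 0.731). Erg and Esam had positive log2 fold changes of 1.98 ± 1.17 and 1.69 ± 1.55 at means of at most 20.1 normalised counts in a group, and neither was called by DESeq2. Cdh5 and Cldn5, which encode junction proteins, had 0 to 43.9 normalised counts, and Sox17 had under 1. DESeq2 called Pecam1 higher when GFP- replicate 3 was left out and Kdr higher when GFP+ replicate 4 was left out, and edgeR without GFP- replicate 3 called both higher. The part of endothelial transcripts in the rise of Ly6a and Ly6c1 was not tested.

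Pi16 (ENSMUSG00000024011, chr17:29317680-29330593, plus strand) had 12135, 10876, 10581 and 11536 normalised counts in GFP- and 10083, 7155, 9249 and 5655 in GFP+. The 4 GFP+ libraries were all below the 4 GFP- libraries, although GFP+ replicate 1 came close to GFP- replicate 3. The log2 fold change was -0.49 ± 0.20 (95% interval -0.88 to -0.10), with an adjusted p of 0.107 by DESeq2 and 0.0594 by the edgeR quasi-likelihood test, which called 4.37% of all genes it tested. Of all genes tested by DESeq2, 5.95% had every GFP+ library below every GFP- library, 6.37% had every one above, and 12.3% did either. Pi16 was at the 99.4th percentile of mean level among the genes tested. It passed the threshold by limma voom (-0.56, adjusted p = 0.0498), which called 9.0% of the genes it tested, without GFP+ replicate 1 (-0.60, adjusted p = 0.0276, DESeq2) and with the replicate block (-0.52, adjusted p = 0.0375, DESeq2).

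Limch1, an actomyosin-binding protein, had the same direction. Its gene (ENSMUSG00000037736) spans chr5:66745827-67057158. Counts were 780, 572, 560 and 656 in GFP- and 590, 307, 264 and 214 in GFP+, so that GFP+ replicate 1 fell within the GFP- range and the other GFP+ libraries were below it. The log2 fold change was -0.91 ± 0.32 (95% interval -1.55 to -0.28), with an adjusted p of 0.0508 by DESeq2, 0.0137 by edgeR and 0.00866 by limma voom. Without GFP+ replicate 1 it was -1.29 (adjusted p = 2.7e-06, DESeq2). By edgeR with low-count genes removed, which called 5.11% of genes, it was not called (-0.91, adjusted p = 0.102). DESeq2 called it with the replicate block (-0.999, adjusted p = 0.00355), with TMM factors (-0.92, adjusted p = 0.0363) and with a minimum mean of 10 raw counts (-0.91, adjusted p = 0.0446). The log2 fold change was negative in all 19 alternative settings, and 9 of them called it.

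Dact2, an inhibitor of Nodal and Wnt signalling, was the least abundant marker. Raw counts were 107, 168, 2 and 185 in GFP- and 0, 112, 45 and 225 in GFP+. As normalised counts these were 145, 120, 21.97 and 97.2 against 0, 46.9, 34.6 and 75.5, and the groups overlapped. The count of 0 in GFP+ replicate 1 allows up to 3 reads, or 4.17 normalised counts. Its log2 fold change of -1.31 ± 0.87 had an interval from -3.02 to 0.39 (adjusted p = 0.411, DESeq2). No difference was detected, with a coefficient of variation of 55.3% in GFP- and 79.7% in GFP+.

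**Figure D2:**
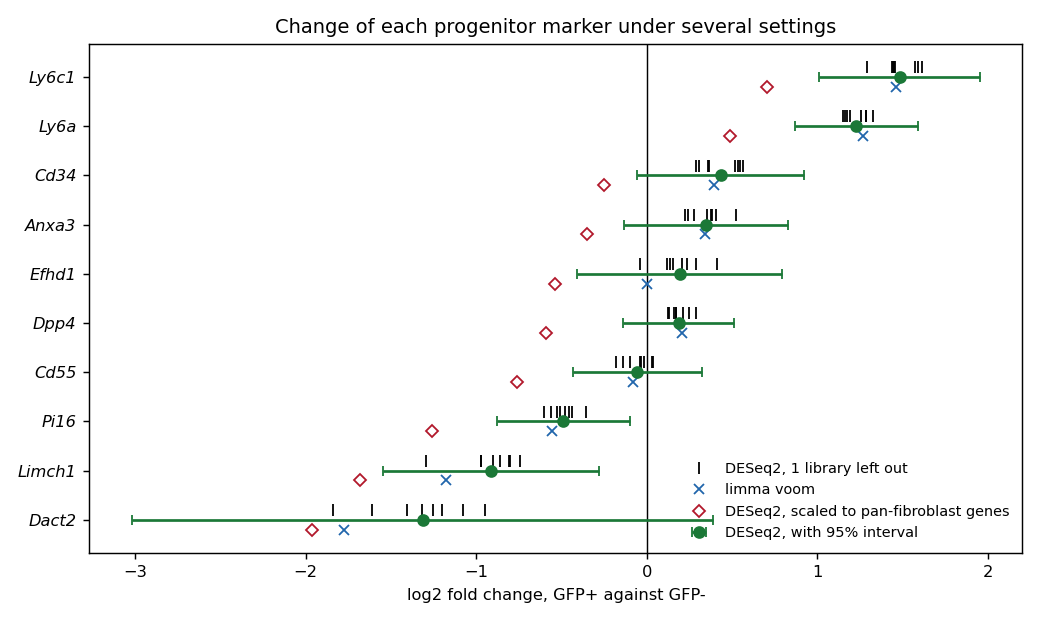
Log2 fold change (GFP+ against GFP-, x axis) of each progenitor marker by DESeq2 with its 95% interval (green), with 1 library left out in turn (black ticks), by limma voom (blue crosses) and by DESeq2 scaled to 16 pan-fibroblast genes (red diamonds). The 8 leave-one-out values of Ly6a and Ly6c1 lie from 1.15 to 1.61, and the pan-fibroblast scaling moves every marker to the left, bringing Cd34, Anxa3, Efhd1 and Dpp4 below 0.

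The peptidase Dpp4, or CD26, trims chemokines and other peptides and is the surface antigen most used to sort these progenitors together with Pi16. Dpp4 (ENSMUSG00000035000, chr2:62330073-62412231, minus strand) had 4303, 3969, 5197 and 4758 normalised counts in GFP- and 5496, 5313, 5794 and 4082 in GFP+. Replicate 4 was the lowest of the GFP+ libraries and lay inside the GFP- range. The log2 fold change was 0.19 ± 0.17 (95% interval -0.14 to 0.51; adjusted p = 0.584, DESeq2). A rise of the size seen for Ly6a or Ly6c1 lay outside this interval.

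Cd34, a sialomucin shared by adventitial fibroblasts, endothelium and haematopoietic progenitors, lies at chr1:194938819-194961279 (ENSMUSG00000016494). Its counts were 7624, 7075, 5131 and 4410 in GFP- and 9587, 6479, 10568 and 6143 in GFP+. GFP+ replicates 2 and 4 were within the GFP- range, and replicates 1 and 3 were above it. A log2 fold change of 0.43 ± 0.25 was not called (95% interval -0.06 to 0.92; adjusted p = 0.32, DESeq2).

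Cd55 encodes a surface inhibitor of complement. The gene (ENSMUSG00000026399, chr1:130439027-130462744) had 4108, 4456, 3461 and 3144 normalised counts in GFP- and 3576, 3544, 4582 and 2908 in GFP+. These ranges nearly coincided, with a log2 fold change of -0.06 ± 0.19 (95% interval -0.44 to 0.32; adjusted p = 0.926, DESeq2). Of its 50-base stretches, 8.0% also occur in another gene, foremost its tandem copy Cd55b.

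Anxa3, a calcium-dependent phospholipid-binding protein, had 3937, 3738, 3813 and 2545 normalised counts in GFP- and 5230, 4401, 5441 and 2756 in GFP+ (ENSMUSG00000029484, chr5:96793339-96845966). In both groups replicate 4 was the lowest, and the other 3 GFP+ values exceeded all GFP- values. Anxa3 had a log2 fold change of 0.35 ± 0.24 (adjusted p = 0.454, DESeq2), and it was not called when any library was left out.

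The mitochondrial calcium-binding protein Efhd1 had 939, 809, 725 and 663 normalised counts in GFP- and 1325, 815, 1005 and 452 in GFP+ (ENSMUSG00000026255, chr1:87264363-87310839). The GFP+ libraries held both the highest and the lowest value of the 8. Accordingly the log2 fold change of 0.19 ± 0.31 was not called (adjusted p = 0.805, DESeq2), and its sign turned without GFP+ replicate 1.

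Per kilobase of exon, the order of the markers changed at its top. In ADAM12– cells the mean level per kilobase was 1819 ± 263 (SD, n = 4) normalised counts for Ly6a and 1773 ± 109 for Pi16, which overlapped, followed by Anxa3 at 963 ± 178 and Ly6c1 at 891 ± 127. Cd34, Cd55 and Dpp4 were at 831, 781 and 721, and each of these overlapped its neighbour. In ADAM12+ cells Ly6a was at 4239 ± 713 and Ly6c1 at 2474 ± 794, which overlapped, and the lowest Ly6c1 library was above the highest Pi16 library. Pi16 was at 1263 ± 316, close to Anxa3 at 1223 ± 335 and Cd34 at 1124 ± 304, and these overlapped. Efhd1, Limch1 and Dact2 closed the order in both groups, at 369, 62.6 and 28.5 in GFP- and 423, 33.5 and 11.6 in GFP+.

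A ratio of 2 transcripts within a library does not depend on how libraries are scaled. The Ly6a count was 0.164 to 0.237 of the Pi16 count in GFP- and 0.568 to 0.849 in GFP+. Likewise Ly6c1 was 0.114 to 0.171 of Pi16 in GFP- and 0.418 to 0.580 in GFP+. These ratios differed by more than the spread between libraries, with a mean 3.35 and 3.85 times higher in GFP+. Ly6a and Ly6c1 were higher and Pi16 was lower in every GFP+ library by normalised count. The separation of the ratios follows from those values and is not further support.

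For other markers too the ratio to Pi16 must be read against Pi16 itself, which was lower in every GFP+ library. Of all other genes tested, 18.7% had a ratio to Pi16 that was higher in every GFP+ library than in any GFP- library, and 1.09% had one that was lower. The ratio of Cd34 to Pi16 was 0.382 to 0.651 in GFP- and 0.906 to 1.14 in GFP+, and that of Dpp4 to Pi16 was 0.355 to 0.491 and 0.545 to 0.743. The Anxa3 ratio was 0.221 to 0.360 against 0.487 to 0.615, and the Efhd1 ratio 0.0575 to 0.0774 against 0.0798 to 0.131. With Ly6a and Ly6c1, the ratios of 6 of the other 9 markers to Pi16 thus did not overlap between the groups, and those of Cd55, Limch1 and Dact2 did. The ratio of Ly6c1 to Ly6a, at 0.570 to 0.744 and 0.666 to 0.969, also overlapped.

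All 10 markers together took 0.338 to 0.354% of counts in GFP- and 0.285 to 0.412% in GFP+, which overlapped. Within that sum, Pi16 took 32.9 ± 2.8% (SD, n = 4) in GFP- and 19.96 ± 1.04% in GFP+. The share of Ly6a went from 6.37 ± 0.77% to 13.0 ± 2.0%, and that of Ly6c1 from 4.37 ± 0.75% to 10.3 ± 1.6%. Shares of 1 sum depend on each other, and they are given as a description without a test, as are the ratios.

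**Figure D3:**
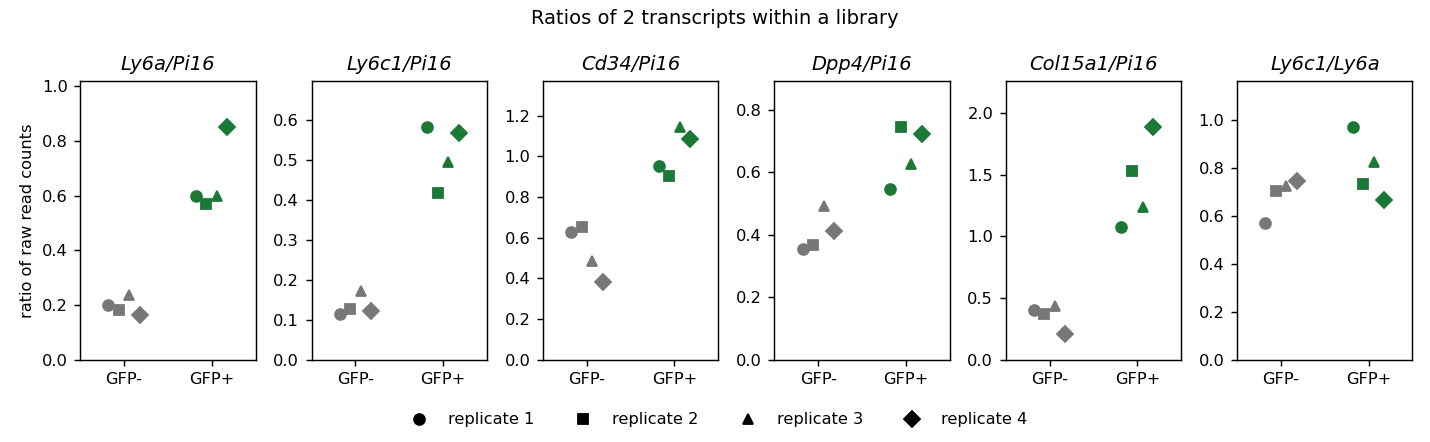
Ratios of the raw read counts of 2 transcripts within each library, for the 4 GFP- (grey) and 4 GFP+ (green) libraries, with each axis starting at 0. The ratios of Ly6a, Ly6c1, Cd34, Dpp4 and Col15a1 to Pi16 are higher in every GFP+ library than in any GFP- library, and the ratio of Ly6c1 to Ly6a overlaps.

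Other genes described for adventitial progenitors moved in both directions. Of 30 listed genes 29 were tested. Against 4.66% of all genes called higher and 4.76% lower, 5 of these rose and 3 fell, with a median log2 fold change of 0.35. Those that rose were Entpd2, an enzyme that degrades extracellular ATP (1.24 ± 0.32), Tppp3, a tubulin-binding protein of tendon and fascia progenitors (0.99 ± 0.23), Tnxb, a matrix protein of the tenascin family (0.67 ± 0.17), Pcolce2, an enhancer of procollagen processing (0.54 ± 0.16), and Clec3b, or tetranectin, which binds plasminogen (0.45 ± 0.13). For all 5 the GFP+ libraries were above the GFP- libraries, which held for 6.37% of all genes tested. Adjusted p-values were 0.00076 to 0.0165 by DESeq2. By edgeR Pcolce2 and Clec3b were not called (adjusted p = 0.0740 and 0.110). EdgeR called Has1 higher (adjusted p = 0.0124) and Creb5 lower (adjusted p = 0.0178), which DESeq2 did not. Under pan-fibroblast scaling Tnxb (-0.12), Pcolce2 (-0.25) and Clec3b (-0.28) turned in sign.

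The 3 genes that fell were a retinoic acid-producing enzyme and 2 secreted ligands. Aldh1a3 had 1604, 1423, 549 and 900 normalised counts in GFP- and 253, 216, 247 and 381 in GFP+, a log2 fold change of -2.04 ± 0.33 (adjusted p = 9.3e-08, DESeq2). Bmp7 had 100, 152, 220 and 196 against 18.1, 72.8, 32.3 and 44.3 (-1.95 ± 0.47, adjusted p = 0.00095, DESeq2). Wnt2 had 669, 482, 297 and 232 against 142, 197, 196 and 184 (-1.24 ± 0.35, adjusted p = 0.00698, DESeq2). Limma voom called Aldh1a3 and Bmp7 lower but not Wnt2. For all 3 genes every GFP+ library was below every GFP- library, which held for 5.95% of all genes tested. The remaining 21 tested genes overlapped, among them the most abundant of the list, Fbn1 (0.42 ± 0.21) and Gfpt2 (0.44 ± 0.22), as well as Cd248 (0.28 ± 0.21), Sema3c (-0.22 ± 0.15) and Scara5 (-0.04 ± 0.16). Scaled to the pan-fibroblast genes, none of the 29 was called higher and 9 were called lower, against the 26.6% of all genes called lower there.

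Genes of the parenchymal universal state moved more uniformly. Of 10 tested genes 9 rose, none fell and 10 had a positive log2 fold change, with a median of 1.38. Col15a1, the collagen that defines the state, had 4910, 4020, 4626 and 2414 normalised counts in GFP- and 10830, 10963, 11442 and 10645 in GFP+. Its log2 fold change was 1.46 ± 0.22 (adjusted p = 5.7e-09, DESeq2), and the GFP+ libraries were nearly equal to each other. The basement membrane genes Col4a1 (1.59 ± 0.21), Col4a2 (1.55 ± 0.21) and Hspg2, which encodes perlecan (0.76 ± 0.19), rose, and the study had named Hspg2 as higher in these samples. So did the lipase Lpl (1.74 ± 0.22), the matrix proteins Smoc2 (1.45 ± 0.23) and Dpt (0.83 ± 0.13), the oxygenase Fmo2 (1.30 ± 0.35) and the glypican Gpc3 (0.66 ± 0.17). Penk, the precursor of enkephalins, overlapped (0.80 ± 0.31, adjusted p = 0.0805, DESeq2).

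The gene lists had been drawn up with earlier results of these data known, so their counts are a description and not a test. Against the same 4.66% of all genes called higher, 2 of 10 progenitor markers, 5 of 29 other adventitial genes and 9 of 10 parenchymal genes were called higher. The pan-fibroblast genes gave 9 of 16, with a median log2 fold change of 0.66. This last count was 5 without GFP+ replicate 3 and by edgeR with filterByExpr, and 12 with the replicate block. Under pan-fibroblast scaling 4 of the 10 parenchymal genes were called higher, against 0.597% of all genes, namely Lpl, Col4a1, Col4a2 and Col15a1, and 8 of 10 were positive, Gpc3 (-0.09) and Penk (-0.05) turning in sign. The ratio of Col15a1 to Pi16 was 0.209 to 0.437 in GFP- and 1.07 to 1.88 in GFP+, whereas the ratio of Ly6a to Col15a1 overlapped, at 0.486 to 0.782 and 0.371 to 0.558. The ratio of Pi16 to Col1a2, itself higher in every GFP+ library, was 0.0991 to 0.216 in GFP- and 0.0477 to 0.0728 in GFP+. Of all other genes tested, 16.0% had a ratio to Col1a2 that was lower in every GFP+ library, as Pi16 did, and 0.936% had one that was higher.

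**Figure D4:**
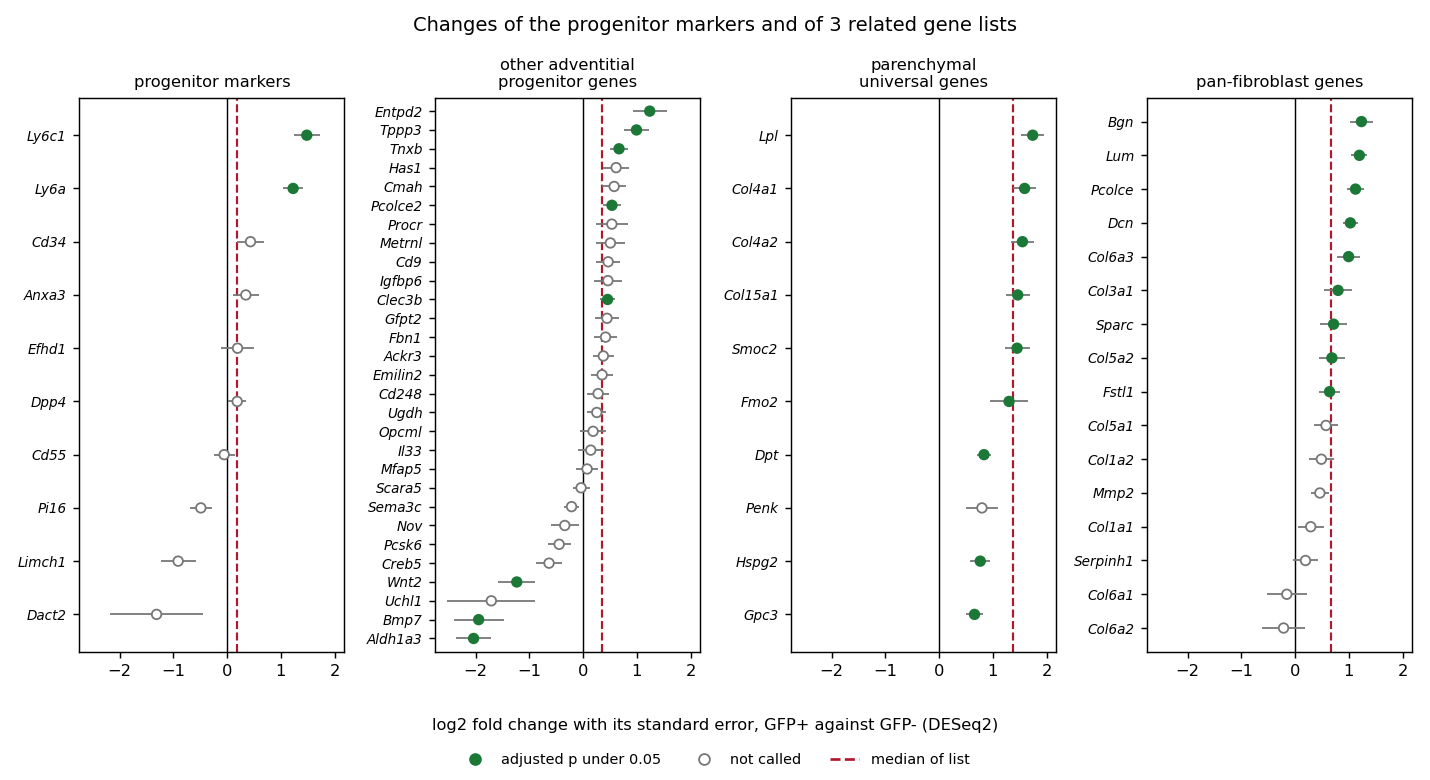
Log2 fold change with its standard error (x axis, GFP+ against GFP-, DESeq2) of the tested genes of 4 lists, with filled green points for genes with an adjusted p under 0.05 and a red dashed line at each list's median. Called genes number 2 of 10 progenitor markers, 8 of 29 other adventitial genes (5 higher, 3 lower), 9 of 10 parenchymal genes and 9 of 16 pan-fibroblast genes. With libraries scaled to the pan-fibroblast genes, Ly6a and Ly6c1 lose their call.

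The study placed Cd34 and Dpp4 in a group of stromal genes with C3, Il6ra and Il6st, as markers of what it calls S1 stroma. Of these 5, C3, the central complement component, was higher by 0.61 ± 0.16 (adjusted p = 0.0039, DESeq2), and Il6st, the shared gp130 receptor chain of the interleukin-6 family, by 0.71 ± 0.22 (adjusted p = 0.0149, DESeq2). Il6st had been named by the study on these samples. Scaled to the pan-fibroblast genes, neither was called, and C3 turned in sign (-0.11, adjusted p = 0.749, DESeq2) while Il6st was at 0.04 (adjusted p = 0.890, DESeq2). The interleukin-6 receptor chain Il6ra had 483, 619, 1044 and 582 normalised counts in GFP- and 936, 930, 1142 and 746 in GFP+, which overlapped (0.50 ± 0.26, adjusted p = 0.250, DESeq2). The study also reported that most ADAM12+ cells carried little or no DPP4, and CD34 at a medium or low level. That is a level per cell, and the bulk RNA compared here is an unlike measure.

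Among 8812 genes with a mean of at least 100 normalised counts, those whose log2(normalised count + 1) was most like that of Ly6a over the 8 libraries were Ly6e (Pearson r = 0.995), C1ra, a serine protease of the complement cascade (0.993), and Apod, a lipid carrier (0.992). The log2 fold changes were 1.84 for Apod and 0.81 for C1ra. The genes most like Pi16 were Zc3h7a (0.974), Ncdn (0.973) and Ints1 (0.961), none of which was called. These 8 libraries share the split into 2 groups and the size factors, and the values rank genes without a test.

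Other cell types were checked through their markers. Of 4 Schwann cell genes tested 3 were lower in GFP+, at a summed 615 to 1785 normalised counts in GFP- and 236 to 489 in GFP+. Only 1 was called lower without GFP- replicate 1, without GFP- replicate 4 or by edgeR with filterByExpr. Pericyte genes gave 1 higher and 1 lower of 7, at 512 to 989 and 680 to 1449. None of 3 keratinocyte genes tested by DESeq2 was called, while edgeR called 1 of 8 lower, Krt5, at a summed level of 33.0 to 343 and 36.0 to 85.3. Melanocyte genes summed to 25502 to 74881 in GFP- and 4517 to 11885 in GFP+.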

How the data were processed

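Libraries had been made with the SMARTer Stranded Total RNA-Seq Pico kit. Per the study's methods and the submitters' processing notes, the authors trimmed reads with cutadapt 3.4, mapped them to GRCm38 (mm10) with STAR 2.7.3a and counted them per gene with featureCounts 2.0.1, using the strand. The authors deposited raw counts per gene and library, and all values start from these. 8 columns of normalised counts, and columns of the authors' fold changes and p-values, were not used. Intervals cover counting error and the spread between libraries only. No molecular identifiers were collapsed.

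Counts of 29043 genes were fitted in R 4.3.3 with DESeq2 1.42.0 (two-sided Wald test on the group, default size factors and dispersions, Benjamini-Hochberg adjustment, threshold 0.05). A normalised count is the raw count divided by the size factor. Alternatives were edgeR 4.0.16 (quasi-likelihood, with and without filterByExpr), limma 3.58.1 (voom, with filterByExpr, with and without quality weights), other scalings and filters, the replicate block, and each library left out. Replicate libraries differed by far more than counting error (chi-square over its degrees of freedom 10.2 to 81.3), so none was counted as a copy of another. On simulated data with 200 changed of 29043 genes, DESeq2 called 131 of these and 72 others, edgeR 134 and 100, edgeR with filterByExpr 101 and 4, and limma voom 105 and 2. In that simulation the false calls of DESeq2, and of edgeR without filterByExpr, exceeded the share that a threshold of 0.05 allows.

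The markers and lists were chosen with earlier results of these data known. Named genes were all markers, called genes of the adventitial and parenchymal lists, the study's stromal list, Ly6 genes with a mean of at least 10, the sort markers and the 3 genes most like Pi16 and Ly6a. Fbn1, Gfpt2, Has1, Creb5, Cd248, Sema3c, Scara5, Penk, Vwf, Krt5, Lyz2, Kdr, Erg, Esam, Cdh5, Cldn5 and Sox17 were added after their values were seen. Annotation was GENCODE M21, which held 53620 of 53801 identifiers. Promoters were RefSeq sequences of GRCm38.p6.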

Additional observations from a re-analysis of the deposited data

Results flagged for a closer look

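In a group of 4 libraries, a highest or lowest value that stood apart from the rest was looked for by Dixon's ratio at its 95% critical value in 20 groups, the 10 markers in GFP- and in GFP+. Chance flags about 1 group in 20, and 2 were found. Ly6c1 in GFP- replicate 3 had 1813 normalised counts against 1378 to 1404 in the other GFP- libraries (ratio 0.94), in the shallowest library, where the raw count was 165. Anxa3 in GFP- replicate 4 had 2545 against 3738 to 3937 (ratio 0.857), in the library with the lowest share of pan-fibroblast transcripts.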

How the results depend on the processing

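Over 19 alternative settings, Ly6a and Ly6c1 stayed positive and were called in 18 each, losing the call when scaled to pan-fibroblast genes (0.49 and 0.70). Pi16 stayed negative and was called lower in 6: limma voom (-0.56), with quality weights (-0.58), pan-fibroblast scaling (-1.26), the replicate block (-0.52), edgeR without GFP- replicate 3 (-0.54) and without GFP+ replicate 1. Limch1 stayed negative and was called in 9: edgeR (-0.92), limma voom (-1.18), with quality weights (-1.19), TMM factors (-0.92), pan-fibroblast scaling (-1.68), a minimum mean of 10 raw counts (-0.91), the replicate block (-0.999), edgeR without GFP- replicate 3 (-0.99) and without GFP+ replicate 1. Pan-fibroblast scaling called Cd55 lower (-0.76) and turned the sign of Anxa3 (-0.35), Cd34 (-0.25), Dpp4 (-0.59) and Efhd1 (-0.54), and quality weights turned Efhd1 (-0.086), none of these turned values being called. With each library left out in turn, log2 fold changes ran from -0.18 to 0.038 for Cd55, -0.042 to 0.41 for Efhd1, -1.29 to -0.74 for Limch1 and -0.60 to -0.35 for Pi16. Dact2 was called in none.

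Markers called numbered 2 at first and 3 by edgeR, TMM factors, pan-fibroblast scaling (0 higher) and the minimum mean, 4 by both limma fits, the replicate block and edgeR without GFP- replicate 3, and 2 to 4 with libraries left out. Other adventitial genes called numbered 8, against 9 with pan-fibroblast scaling, 11 with the replicate block, 6 by edgeR with filterByExpr, which was chosen after seeing the data like edgeR without GFP- replicate 3, and 6 (without GFP+ replicate 3) to 11 (without GFP+ replicate 4). Parenchymal genes called fell from 9 to 4 with pan-fibroblast scaling. All genes called numbered 1439, against 3735 with pan-fibroblast scaling (82 higher and 3653 lower, where the unchanged scaling gave 712 and 727), 732 by edgeR with filterByExpr, and 969 (without GFP- replicate 4) to 1837, with 980 without GFP+ replicate 3. The cause of these shifts was not tested. Same-numbered libraries correlated at -0.158 to 0.262 after group means were removed, over 0.1 in 1 of 4 pairs, which gives no sign that the numbers pair the samples, but the labels and methods do not say whether same-numbered sorts came from 1 tumour, and the replicate block is the fit that would apply if they did. Dact2, with 0 to 225 reads, varied widely within both groups.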
